A study of Mus musculus with 5 samples.

Results

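The cytokine receptor chains Il7r, Il2rb, Il2rg, Il18r1 and Il18rap were followed in single T cells of the mouse brain. They were chosen by name and not by a cut on their values, though earlier results of these data were known. They are 5 of 15952 genes that had at least 1 unique molecular identifier (UMI, a tag that counts 1 captured transcript) in the cells kept. Of 1920 wells, 1482 were kept because they were annotated as holding 1 cell, had 400 or more UMIs outside the spike-ins, and had no more than 30% of their UMIs from the mitochondrial genome. All 5 chains were detected, but Il18rap had only 44 UMIs in 21 cells.

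All mice carried the Grl1loxP/loxP strain label, that is, loxP sites flanking both alleles of the glucocorticoid receptor gene, and all were exposed to foot-shock stress. The TAT-CRE group (3 mice, numbered 207, 208 and 215, aged 18, 18 and 19 weeks) received TAT-CRE recombinase, a Cre enzyme that enters cells, into the brain ventricles. The PBS group (2 mice, numbered 216 and 218, aged 19 and 16 weeks) received the salt solution instead and so kept the floxed gene without Cre. Brain parenchyma without the choroid plexus was collected on day 14 after the stress. CD45+CD11b-TCRβ+ cells were then sorted singly into plates for a MARS-seq type library. The study aimed the recombination at the choroid plexus, the tissue that secretes cerebrospinal fluid, so the T cells themselves were not the intended target. The labels do not state whether a library pooled animals. Each library was taken as 1 mouse, and p-values reach no further than the spread between these libraries. The tests over genes estimate that spread partly or almost wholly from all genes together, not from each gene alone.

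The common gamma chain encoded by Il2rg pairs with a private chain to form the receptors for IL-2, IL-4, IL-7, IL-9, IL-15 and IL-21. The IL-7 receptor, with the alpha chain encoded by Il7r, keeps naive and memory T cells alive between encounters with antigen, and glucocorticoids are known to raise Il7r transcription in T cells. The beta chain encoded by Il2rb passes on IL-2 and IL-15 signals through STAT5 and is prominent on memory and effector CD8 T cells. Il18r1 encodes the chain that binds IL-18, and Il18rap encodes the partner chain needed to signal through MyD88 in T cells that respond to inflammation.

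In the mm10 build, GENCODE M21 places Il7r at chr15:9505788-9530176 and Il2rb at chr15:78479256-78495271, both on the minus strand. Il2rg lies at chrX:101264378-101268255 on the minus strand and overlaps the readthrough model Gm20489 on the same strand, so its counts could be shared with that model. Il18r1, at chr1:40465552-40500854, and Il18rap, at chr1:40515362-40551705, lie on the plus strand with 14507 bases between them. Il18r1 starts 136 bases after the end of Il1rl1, the IL-33 receptor gene, which had 48 UMIs in 11 cells here. The stretches before the transcription starts are shown for the 4 chains that RefSeq's promoter table of build GRCm38.p6 lists, trimmed to bases outside every exon annotated by GENCODE. They let the chains be compared for letters bound by the factors named with these receptors. Capitals mark matches, on either strand, to TTCNNNGAA (a STAT motif), CACCC (the box of Krüppel-like factors such as Klf2) and TGTGGT (a RUNX motif).
Il7r, chr15:9529877-9530040, minus strand: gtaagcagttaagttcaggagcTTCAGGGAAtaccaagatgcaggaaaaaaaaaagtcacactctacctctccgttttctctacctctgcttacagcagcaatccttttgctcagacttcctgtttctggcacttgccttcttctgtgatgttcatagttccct
Il2rg, chrX:101268256-101268505, minus strand: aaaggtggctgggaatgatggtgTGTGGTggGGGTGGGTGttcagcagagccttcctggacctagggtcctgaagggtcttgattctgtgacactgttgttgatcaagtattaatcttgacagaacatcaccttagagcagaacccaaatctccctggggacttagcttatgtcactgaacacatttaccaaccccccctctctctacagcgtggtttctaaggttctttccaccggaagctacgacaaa
Il18r1, chr1:40465416-40465551, plus strand: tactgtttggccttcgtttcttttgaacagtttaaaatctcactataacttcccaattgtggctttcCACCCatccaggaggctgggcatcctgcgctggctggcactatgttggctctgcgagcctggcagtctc
Il18rap, chr1:40515112-40515361, plus strand: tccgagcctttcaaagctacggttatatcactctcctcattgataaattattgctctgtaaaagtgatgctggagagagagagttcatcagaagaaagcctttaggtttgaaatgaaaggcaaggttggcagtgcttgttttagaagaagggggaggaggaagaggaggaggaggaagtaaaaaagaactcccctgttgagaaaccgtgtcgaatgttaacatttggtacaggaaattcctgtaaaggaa
The Il7r stretch of 164 bases is intronic to a longer transcript model and held 1 STAT match, which 4.47% of the 32851 windows of that length and place also held. The Il2rg stretch held 2 overlapping CACCC matches and 1 TGTGGT match, letters present in 52.0% and 14.0% of windows of its length. The Il18r1 stretch held 1 CACCC match, as did 34.8% of such windows, and the Il18rap stretch held none of the 3. The palindromic motif of the glucocorticoid receptor was in none of the 4 stretches and in 0.387% of windows of 250 bases. A match or its absence in these windows is a description of letters only.

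The kept cells numbered 311, 303 and 298 for the TAT-CRE mice 207, 208 and 215, against 296 and 274 for the PBS mice 216 and 218. Median UMIs per cell ranged from 993 to 1953 in the TAT-CRE mice, against 1410 and 2660 in the PBS mice. TAT-CRE 208 was the shallowest library, with 28.3% of its UMIs from ribosomal RNA genes, against 43.9% to 48.0% in the other mice. Levels are therefore given as CPM, the UMIs of a gene per 1000000 UMIs outside ribosomal RNA. Among the sorted cells Trbc2, a constant region of the T cell receptor beta chain, was found in 55.3%. The natural killer cell gene Ncr1 was found in 1 cell, and the myeloid and microglial genes Lyz2, Csf1r, Cd14, P2ry12 and Tmem119 and the B cell gene Cd79a in none. The 20 empty wells held 1095 UMIs, of which 1 was from Il7r and none from the other 4 chains. No kept cell type was known to lack these genes, so no background share within cells could be set. The plates used the same 384 well barcodes with a pool barcode of their own, and no well was listed in more than 1 library. Each mouse had its own plate, so plate and mouse cannot be told apart. Nr3c1, the floxed gene, had 323, 196 and 301 CPM in the T cells of TAT-CRE 207, 208 and 215, against 352 and 395 CPM in PBS 216 and 218. Its count does not check the labels, since the recombination was aimed at another tissue.

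Il7r gave 1016 UMIs in 265 of the 1482 cells, or 17.9%. Il2rb gave 872 UMIs in 290 cells (19.6%) and Il2rg gave 657 UMIs in 281 cells (19.0%). Il18r1 gave 219 UMIs in 77 cells (5.20%), and the 44 UMIs of Il18rap lay in 1.42% of cells. These numbers count captured tags, and they are not set against each other as transcript levels because capture can differ between genes. Cells with a UMI of a chain were deeper than cells without one: the median cell with Il7r had 2409 UMIs, and the median cell without it 1519.

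The UMIs of Il7r were gathered in fewer cells than those of most genes of like abundance. Its 265 cells held 3.83 UMIs of Il7r each, and 137 of them held 3 or more. Of 224 genes with totals within 1.5 times that of Il7r, 216 (96.4%) had fewer UMIs per detecting cell, and their median was 2.66. Il2rb, with 3.01 UMIs per detecting cell, and Il18r1, with 2.84, lay above 66.4% and 65.2% of their like-abundance genes. The shared chain Il2rg, with 2.34, lay above 27.9% of them, and Il18rap, with 2.10, above 31.2%.

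The study's own contrast asked whether T cells that reached the brain differed after Cre was given into the ventricles. No receptor chain differed between the TAT-CRE and the PBS mice beyond the spread between mice. Il7r stood at 626, 470 and 660 CPM in TAT-CRE 207, 208 and 215, against 375 and 731 CPM in PBS 216 and 218. The PBS mice were the lowest and the highest of the 5, so the groups overlapped. Il2rb stood at 490, 404 and 471 CPM in the TAT-CRE mice, against 744 and 457 CPM in PBS 216 and 218. PBS 216 alone lay above the rest, and PBS 218 lay among the TAT-CRE mice. Il2rg stood at 256, 466 and 409 CPM in the TAT-CRE mice, against 402 and 412 CPM in the PBS mice. Here TAT-CRE 207 was the lowest mouse and the other 4 lay close together.

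The chains of the IL-18 receptor spread widely among the TAT-CRE mice. Il18r1 stood at 50.6, 250.2 and 157 CPM in TAT-CRE 207, 208 and 215, against 86.4 and 130 CPM in PBS 216 and 218. The lowest and the highest mouse both belonged to the TAT-CRE group. Il18rap stood at 21.3, 0 and 49.0 CPM in the TAT-CRE mice, against 33.2 and 23.4 CPM in the PBS mice. TAT-CRE 208, the mouse with the most Il18r1, had no Il18rap UMI in 303 cells, which allows a share of cells with a UMI of up to 0.990%.

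**Figure D1:**
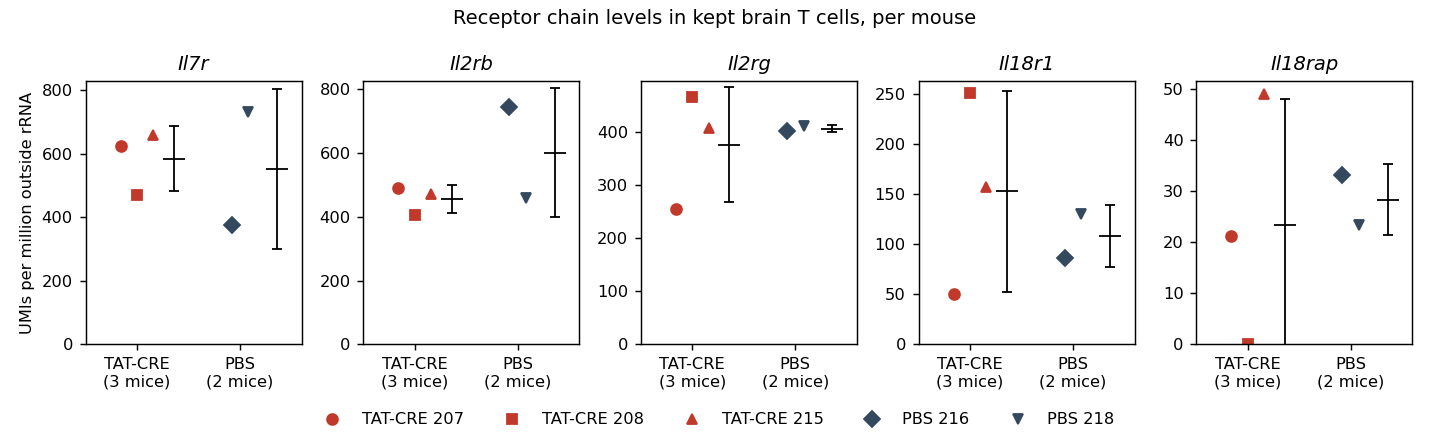
Level of each receptor chain (vertical axis, CPM outside ribosomal RNA) in the 3 TAT-CRE mice and the 2 PBS mice; points are mice, and horizontal bars with whiskers are group means ± SD. For every chain the points of the groups overlap, with Il7r at 470 to 660 CPM under TAT-CRE, against 375 and 731 CPM under PBS.

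With edgeR's quasi-likelihood test on UMIs summed per mouse, the log2 fold changes of TAT-CRE over PBS were 0.08 ± 0.29 for Il7r, -0.39 ± 0.26 for Il2rb and -0.12 ± 0.29 for Il2rg (± SE). They were 0.47 ± 0.55 for Il18r1 and -0.23 ± 1.21 for Il18rap. The Benjamini-Hochberg adjusted p of edgeR was 0.999 for each of the 5. None of the 5 members was called, and the background was the same, with 0 of 5996 genes (0%) at an adjusted p under 0.05. At an unadjusted p under 0.05 edgeR had 218 genes, 123 higher and 95 lower, and DESeq2 called 1 gene. Single mice turned the signs: without PBS 216 the log2 fold change was -0.29 for Il7r and 0.02 for Il2rb, and without PBS 218 it was 0.64 for Il7r and -0.71 for Il2rb. Without TAT-CRE 208 that of Il18r1 was -0.07. In sums over cells, fewer cells with a transcript and less transcript per cell cannot be told apart, so shares of cells were also compared.

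Because libraries differed in depth, the share of cells with a UMI was computed after thinning each cell to 250 UMIs outside ribosomal RNA, which left out 8 of the 1482 cells. At that depth Il7r was present in 8.39 ± 1.74% of TAT-CRE cells and 8.61 ± 3.51% of PBS cells (SD, n = 3 and 2 mice; exact permutation p = 1). Il2rb was present in 7.82 ± 1.05% of TAT-CRE and 9.94 ± 3.42% of PBS cells (two-sided exact permutation p = 0.4). For Il2rg, the shares were 6.91 ± 1.93% and 7.89 ± 0.54% in TAT-CRE and PBS cells (exact p = 0.9). Il18r1 had 2.46 ± 1.98% and 2.08 ± 0.33% in TAT-CRE and PBS cells (exact p = 0.9), and Il18rap 0.37 ± 0.46% and 0.55 ± 0.10% (exact p = 0.7). With 10 possible splits of the mice, the smallest p this test allows is 0.1. Without thinning, the Il2rg share was 17.0 ± 1.57% in TAT-CRE cells and 22.2 ± 3.69% in PBS cells, with no overlap (exact permutation p = 0.1). That of Il2rb was 17.5 ± 5.27% and 22.8 ± 1.24%, also with no overlap (exact permutation p = 0.2). Both values moved with depth, and how many other genes lay apart in this way is not given here.

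The wider cytokine pathway gave no call in this contrast either. None of the 7 tested genes of the gamma chain family list passed, nor any of the 7 Janus kinases and STATs, the 10 STAT5 targets, the 4 IL-1 and IL-18 receptor family genes, the 7 MyD88 pathway genes or the 13 other cytokine receptor chains. The list medians were 0.08, 0.15, 0.08, -0.58, -0.14 and 0.09 on the log2 scale, beside -0.0024 over all genes. Jak1, the kinase bound by Il7r and Il2rb, was the kinase with most UMIs (1384) and had a log2 fold change of -0.40 ± 0.21. Bcl2, a survival gene downstream of IL-7, had -0.03 ± 0.23 on 946 UMIs, and Mcl1 and Cish, another survival gene and a feedback inhibitor, had -0.18 ± 0.26 and 0.02 ± 0.32. In the MyD88 pathway, downstream of the IL-18 receptor, the NF-kappaB inhibitor gene Nfkbia had 0.63 ± 0.39, Nfkb1 -0.14 ± 0.36 and the kinase gene Irak1 -0.24 ± 0.41. Among other receptor chains, Ifngr1, for interferon gamma, had -0.27 ± 0.25, Tgfbr2, for TGF-beta, 0.32 ± 0.31 and Il17ra, for IL-17, -0.19 ± 0.40. Of the ligands, Il2 alone had enough UMIs to be tested (55), with a log2 fold change of 2.28 ± 1.21 and an edgeR adjusted p of 0.999.

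Cells with a Cxcr6 UMI and none of Klf2 (384 cells) were set against cells with a Klf2 UMI and none of Cxcr6 (139 cells). Cxcr6, a chemokine receptor, marks T cells that settle in tissue, and Klf2 is a transcription factor that keeps T cells circulating. The genes of circulating naive and central memory T cells separated the classes, and none of the receptor chains passed the test. Il7r stood at 303, 277 and 550 CPM in Cxcr6 cells of TAT-CRE 207, 208 and 215 and at 227 and 637 CPM in those of PBS 216 and 218. In Klf2 cells of the same mice, Il7r stood at 298, 264, 944, 625 and 1082 CPM. In 3 of 5 mice Il7r was therefore further down in Cxcr6 cells, and in TAT-CRE 207 and 208 the classes were level. Il2rb averaged 490 ± 194 CPM in Cxcr6 cells and 454 ± 274 CPM in Klf2 cells (SD, n = 5 mice). Il2rg averaged 368 ± 116 CPM in Cxcr6 cells and 475 ± 188 CPM in Klf2 cells, with the lower value in Cxcr6 cells in 4 of 5 mice. Il18r1 averaged 160 ± 102 CPM in Cxcr6 cells and 59.6 ± 42.8 CPM in Klf2 cells, and Cxcr6 cells had the larger value in 4 of 5 mice, on 70 and 15 UMIs.

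With the mouse as a block, edgeR gave log2 fold changes of Cxcr6 over Klf2 cells of -0.62 ± 0.34 for Il7r (adjusted p = 0.877), 0.15 ± 0.36 for Il2rb and -0.31 ± 0.38 for Il2rg (both 0.999). That of Il18r1 was 1.08 ± 1.00 (adjusted p = 0.999 with edgeR), and Il18rap, with 26 UMIs, fell under the minimum of 30 for testing. None of the 4 members tested was called, against 25 of 4453 genes (0.561%), 12 higher (0.269%) and 13 lower (0.292%) in Cxcr6 cells. The split depended on the scaling: with TMM it was 25 higher and 6 lower, and DESeq2 called 17 higher and 11 lower. Without TAT-CRE 207, TAT-CRE 215 or PBS 218 the count was 14, 16 or 13, and without the block for mouse it was 1. The median fold change of all genes tested was 0.27, and that of the 334 genes with 300 or more UMIs was -0.10.

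Both lists of genes named for the states held called genes. Of the 7 tested genes of the naive and central memory list, which includes Il7r itself, 5 fell in Cxcr6 cells. Ccr7, the lymph node chemokine receptor, had a log2 fold change of -4.81 ± 1.11 (edgeR adjusted p = 0.00478). S1pr1, the receptor for exit into blood, had -2.35 ± 0.53, and the transcription factors Lef1 and Tcf7 had -2.63 ± 0.59 and -1.14 ± 0.28. Of the 10 tested genes of the resident memory and effector list, 4 rose: the chemokine Ccl5 by 0.94 ± 0.12, the protease Gzmb by 3.57 ± 0.79, the granule gene Nkg7 by 1.16 ± 0.27 and the regulator Id2 by 1.37 ± 0.19. These 8 genes were called with edgeR adjusted p-values of 0.0114 or less. Without PBS 218 the calls of Ccr7, Tcf7, Lef1, S1pr1 and Nkg7 were lost, without TAT-CRE 207 those of Ccr7, Tcf7, Gzmb and Nkg7, without TAT-CRE 215 that of Tcf7 and without PBS 216 that of S1pr1. Whether Il7r differed less between the classes than these genes did was not tested.

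**Figure D2:**
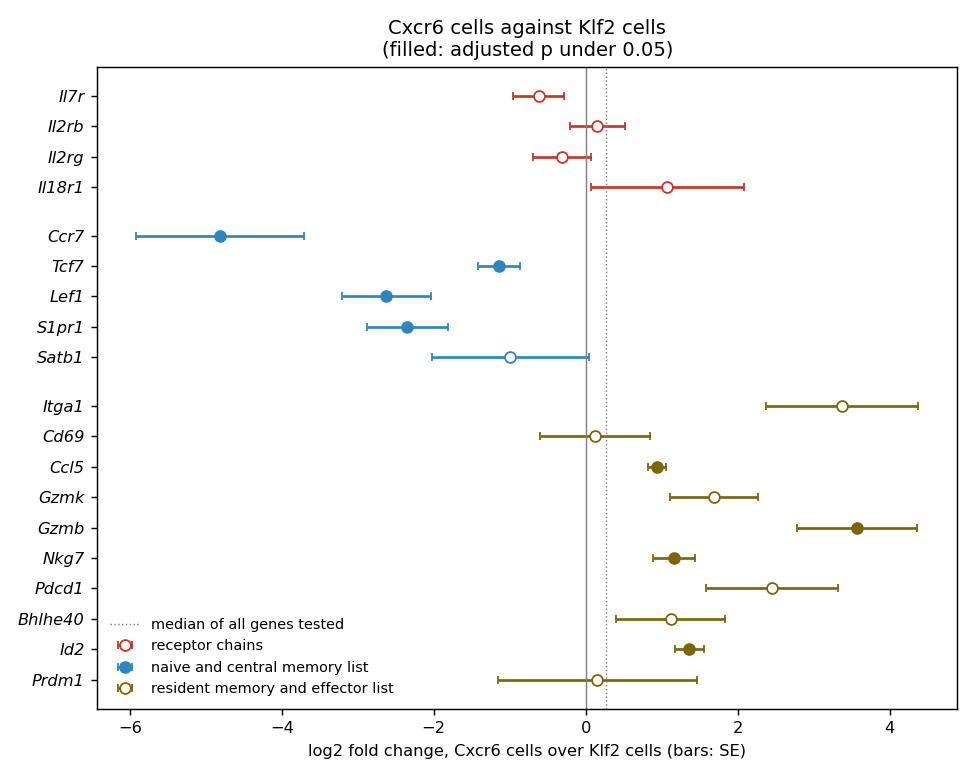
Log2 fold change of Cxcr6 cells over Klf2 cells (horizontal axis; bars are SE) from sums over 5 mice for 4 receptor chains, 5 genes of the naive and central memory list and the 10 tested genes of the resident memory and effector list; filled points have an adjusted p under 0.05, and the dotted line is the median of all genes. The chains lie between -0.62 and 1.08 with open points, while Ccr7 lies at -4.81 and Gzmb at 3.57.

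No gene of the cytokine pathway lists was called between Cxcr6 and Klf2 cells. This covers 5 tested gamma chain family genes (median log2 fold change -0.31), 7 Janus kinases and STATs (0.19), 10 STAT5 targets (0.21), 7 MyD88 pathway genes (0.32) and 11 other cytokine receptor chains (0.15), beside 0.27 over all genes. Among the STAT5 targets with most UMIs, Cish, a feedback inhibitor of IL-2 receptor signalling, had a log2 fold change of 1.75 ± 0.62 (edgeR adjusted p = 0.305), Bcl2 0.08 ± 0.29 and Mcl1 0.25 ± 0.41. Jak1 had -0.36 ± 0.24 and Stat4 0.19 ± 0.60. Of the other chains, the interferon gamma receptor gene Ifngr1 had 0.15 ± 0.34 and the TGF-beta receptor gene Tgfbr2 0.57 ± 0.56.

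Within CD8 cells (190 Cxcr6 and 63 Klf2 cells) the levels of Il7r lay close together in sums over mice but spread widely between mice. Il7r averaged 308 ± 158 CPM in Cxcr6 cells and 291 ± 362 CPM in Klf2 cells (SD, n = 5 mice). The larger value was in Cxcr6 cells in 4 of 5 mice. Summed over mice, Il7r had 92 UMIs and 333 CPM in Cxcr6 cells and 33 UMIs and 317 CPM in Klf2 cells, and was found in 16.3% of Cxcr6 and 15.9% of Klf2 cells. The Klf2 cells of TAT-CRE 208 and PBS 216 had no Il7r UMI in 11 and 8 cells, and in TAT-CRE 215 the level was 429 CPM in Cxcr6 cells and 851 CPM in Klf2 cells. The fitted log2 fold change was 0.61 ± 0.80 (edgeR adjusted p = 0.997), which was 0.22 without TAT-CRE 208 and 1.31 without TAT-CRE 215. In edgeR, Il2rb had 0.11 ± 0.59 and Il2rg -0.43 ± 0.69 (adjusted p = 0.997 with edgeR's quasi-likelihood test for both), and the IL-18 receptor chains were too sparse to test. In this smaller fit 7 of 2550 genes (0.275%) were called, 4 higher (0.157%) and 3 lower (0.118%), and none was a member. Without TAT-CRE 215 the count was 0. The difference between this contrast and that over all cells was not tested.

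Cells with a Cd8a or Cd8b1 UMI and none of Cd4 (630 cells, called CD8 cells) were next set against cells with a Cd4 UMI and neither CD8 gene (85 cells). Il7r was the chain that separated them most evenly over mice, with a lower value in CD8 cells in 5 of 5 mice. It stood at 580, 266 and 557 CPM in CD8 cells of TAT-CRE 207, 208 and 215 and at 312 and 515 CPM in those of PBS 216 and 218. In CD4 cells of the same mice it stood at 690, 1885, 789, 673 and 678 CPM. The ranges of the classes did not overlap, but how many other genes had separate ranges is not given here. The CD4 sums were also small: TAT-CRE 207 had 22 cells, TAT-CRE 215 had 23, PBS 216 had 13 and PBS 218 had 8. The CD4 cells of TAT-CRE 208 (32 UMIs of Il7r in 4 of 19 cells) lay far above the rest. At 250 UMIs per cell, Il7r was present in 7.36 ± 1.6% of CD8 cells and 13.2 ± 2.92% of CD4 cells (SD, n = 5 mice), again lower in CD8 cells in 5 of 5 mice.

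The difference in Il7r did not pass the test over all genes. The log2 fold change of CD8 over CD4 cells was -0.97 ± 0.41, with an unadjusted p of 0.0181 and an edgeR adjusted p of 0.483. Without TAT-CRE 208 it was -0.55, with TMM scaling -0.47, and over all alternatives the adjusted p ranged from 0.342 to 1.00. Il2rb averaged 479 ± 203 CPM in CD8 cells and 536 ± 389 CPM in CD4 cells, with a log2 fold change of -0.01 ± 0.50. Il2rg averaged 373 ± 106 CPM in CD8 cells and 422 ± 144 CPM in CD4 cells, with -0.21 ± 0.55. TMM scaling turned the sign of both, to 0.51 and 0.29.

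Il18r1 was found in 24 of 630 CD8 cells (3.81%) and in 8 of 85 CD4 cells (9.41%). It averaged 74.2 ± 42.7 CPM in CD8 cells and 350.2 ± 447.9 CPM in CD4 cells, with 19 of the 30 UMIs in CD4 cells coming from 4 cells of TAT-CRE 208. The log2 fold change was -1.43 ± 0.92 (edgeR adjusted p = 0.811), and -0.74 without TAT-CRE 208. None of the 4 members tested was called, against 2 of 5303 genes (0.0377%), Ccl5 and Ly6c2, both higher in CD8 cells. The median log2 fold change over all genes was 0.51 and over 452 genes with 300 or more UMIs 0.14, so a fold change here is read beside those values. Ccl5 belongs to the resident memory and effector list, and no gene of the cytokine pathway lists passed.

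**Figure D3:**
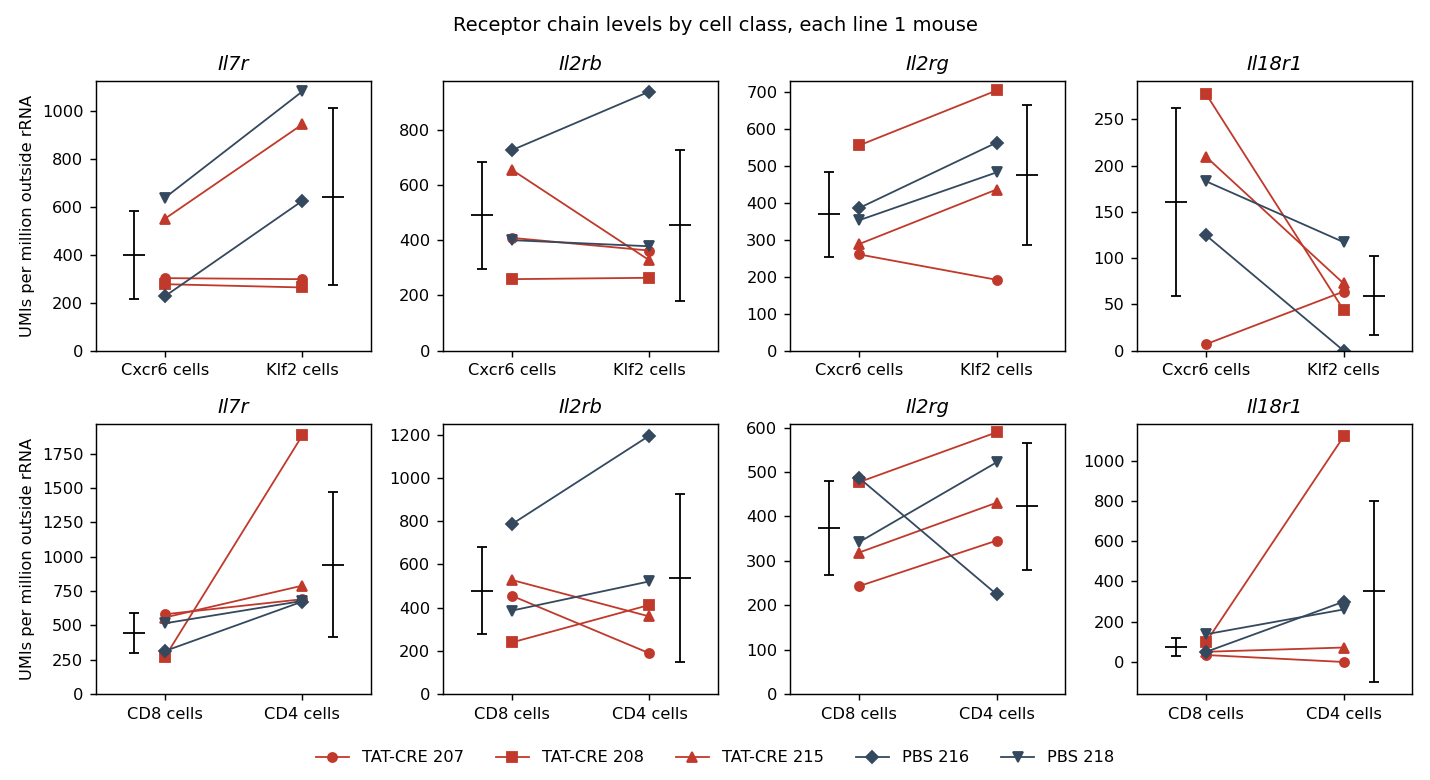
Level of 4 receptor chains (vertical axes, CPM outside ribosomal RNA) in Cxcr6 against Klf2 cells (upper row) and in CD8 against CD4 cells (lower row); each line joins the classes of 1 mouse, and bars with whiskers are means ± SD over 5 mice. Every line for Il7r climbs towards CD4 cells, steepest in TAT-CRE 208 at 1885.

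Cells with Il7r and cells with Il2rb overlapped in part. A UMI of Il7r without Il2rb was found in 208 cells, of Il2rb without Il7r in 233 cells, of both in 57 cells and of neither in 984 cells. The cells with both were the deepest, with a median of 3223 UMIs, against 2221 in cells with Il7r only, 2092 in cells with Il2rb only and 1381 in cells with neither. At 250 UMIs per cell, the thinned count of cells with both was 7.62, where the product of the 2 shares in each mouse gave 10.5, a ratio of 0.72. The ratio was 0.47, 0.65 and 0.90 for the TAT-CRE mice 207, 208 and 215, against 0.76 and 0.83 for the PBS mice, so it was under 1 in 5 of 5 mice. Without thinning the product of the shares gave 53.5 cells where 57 were seen, a ratio of 1.07, so the ratio under 1 rests on the fixed depth. These counts are over cells and carry no test.

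At 250 UMIs, the ratio for the shared chain was 0.92 for Il7r with Il2rg and 0.86 for Il2rb with Il2rg, and without thinning 1.33 and 1.14. It was 1.39 for Il7r with Il18r1 and 0.78 for Il2rb with Il18r1, and without thinning 1.63 on 22 shared cells and 1.00 on 14. Il18r1 and Il18rap, the chains of 1 receptor, were never seen in the same cell. That is 0 of 1482 cells, where the product of the shares without thinning gave 0.878 cells. Without thinning, Il18rap shared 10 cells with Il7r, where the product gave 3.94. It shared 8 cells with Il2rg (product 4.14) and 8 with Il2rb (4.52). With a product under 1 cell, the count of 0 cannot show whether the IL-18 receptor chains lie in separate cells. The part of depth in it was not tested.

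The balance between the private chains overlapped between the groups. At 250 UMIs, Il7r without Il2rb made up 53.7%, 48.4% and 48.4% of cells with either chain in TAT-CRE 207, 208 and 215, against 31.0% and 58.0% in PBS 216 and 218. The PBS mice were again the lowest and the highest. The mean share was 50.2 ± 3.04% under TAT-CRE, against 44.5 ± 19.1% under PBS (two-sided exact permutation p = 0.7, n = 3 and 2).

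Cells with Il7r only held more CD4 cells and fewer Cxcr6 cells than cells with Il2rb only, in counts without a test. CD4 cells were 20 of 208 (9.62%) of the Il7r cells and 7 of 233 (3.0%) of the Il2rb cells. The share was larger in the Il7r cells of 4 mice and equal in PBS 216, at 3.33%. CD8 cells made up 44.2% of the Il7r cells and 47.2% of the Il2rb cells. Cxcr6 cells made up 22.6% of the Il7r cells and 28.8% of the Il2rb cells, with the smaller share in the Il7r cells of 4 of 5 mice. Klf2 cells made up 11.1% of the Il7r cells and 7.73% of the Il2rb cells, and 3 of 5 mice had the larger share in the Il7r cells.

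Split the other way, Il7r only made up 45.5% of the single-chain cells among CD8 cells (92 of 202) and 74.1% among CD4 cells (20 of 27). Among Cxcr6 cells it made up 41.2% of them (47 with Il7r and 67 with Il2rb), and among Klf2 cells 56.1% (23 and 18). These shares pool cells of 5 mice and show a makeup, not a test.

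No other gene passed the test between Il7r cells and Il2rb cells. edgeR with the mouse as a block called 0 of 4088 genes (0%), with 109 at an unadjusted p under 0.05, of which 61 were higher and 48 lower in Il7r cells. DESeq2 called 1 gene, and edgeR called 2 with no filter on low counts. In simulated data of this contrast, 28% of 4-fold changes were recovered.

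Of the members tested here, Il2rg and Il18r1, the latter had the wider gap. Il18r1 gave 10, 16 and 15 UMIs in Il7r cells of TAT-CRE 207, 208 and 215 and 5 and 20 UMIs in those of PBS 216 and 218. In the Il2rb cells it gave 3, 3, 0, 4 and 4 UMIs in the same mice. It averaged 245 ± 148 CPM in Il7r cells and 47.0 ± 35.6 CPM in Il2rb cells, with the larger value in Il7r cells in 5 of 5 mice. How many of all genes tested went 1 way in every mouse is not given here. The log2 fold change was 2.35 ± 0.77, with an unadjusted p of 0.00641 and an edgeR adjusted p of 1.00, so it did not pass over all genes. The 66 UMIs in Il7r cells came from 16 cells and the 14 in Il2rb cells from 8.

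None of the 3 tested of 4 marker genes of type 2 innate lymphoid cells (Il1rl1, Rora and Gata3) was called, and none had an unadjusted p under 0.05. All 3 had a positive log2 fold change, with a median of 1.47, but for Rora and Gata3 the mice went different ways. Rora had 45.4 and 35.8 CPM in Il7r cells of TAT-CRE 207 and 215, against 72.5 and 119 CPM in their Il2rb cells, and Gata3 157 CPM in Il7r cells of PBS 216, against 203 CPM in its Il2rb cells. The sum of the list averaged 535 ± 297 CPM in Il7r cells (212 to 978) and 193 ± 135 CPM in Il2rb cells (32.7 to 383). None of its 4 genes was at 0 over all cells. T helper cells also use Rora and Gata3, and all cells were sorted as TCRβ+. The part of either cell type in the Il18r1 value was not tested. Il2rg averaged 399 ± 146 CPM in Il7r cells and 312 ± 68.6 CPM in Il2rb cells, with a log2 fold change of 0.31 ± 0.38 (edgeR adjusted p = 1.00).

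The 6 genes with the smallest p-values are named here after their values were seen, and none was called. Gnas, a G protein subunit, averaged 917 ± 277 CPM in Il7r cells and 2005 ± 544 CPM in Il2rb cells, a log2 fold change of -1.10 ± 0.20 (edgeR adjusted p = 0.131). Ly6c2, a surface protein of memory CD8 cells, had -0.99 ± 0.20 (0.213), and Rgs1, a regulator that holds T cells in tissue, had -1.17 ± 0.27 (0.513). Fyb, an adaptor of T cell receptor signalling, averaged 809 ± 311 CPM in Il7r cells and 323 ± 221 CPM in Il2rb cells, 1.40 ± 0.39 (edgeR adjusted p = 1.00). The chemokine Ccl5 had -0.56 ± 0.16. Cxcr6 itself averaged 650 ± 167 CPM in Il7r cells and 1116 ± 179 CPM in Il2rb cells, -0.76 ± 0.23 (edgeR adjusted p = 1.00). In 5 of 5 mice Fyb had the larger value in Il7r cells, and the other 5 genes had the smaller one. Choosing genes by p-value in the same mice favours such evenness, so it adds no support. Of the 10 tested genes of the resident memory and effector list, 9 had a negative log2 fold change, 3 had an unadjusted p under 0.05 and none was called, with a list median of -0.50 beside -0.04 over all genes. Of the 7 tested naive and central memory genes, 6 had a positive one and none was called, with a median of 0.40.

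**Figure D4:**
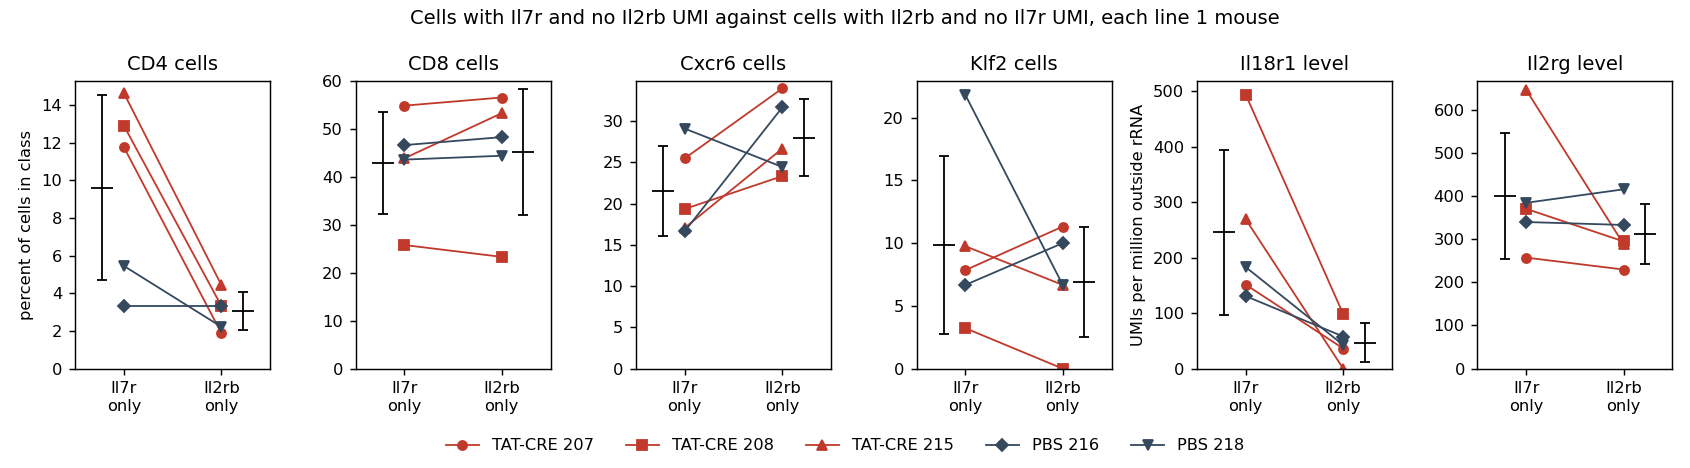
Cells with Il7r and no Il2rb UMI against cells with Il2rb and no Il7r UMI: the percentage that were CD4, CD8, Cxcr6 or Klf2 cells (first 4 panels) and the levels of Il18r1 and Il2rg in CPM outside ribosomal RNA (last 2 panels). Each line is 1 mouse and bars are means ± SD over 5 mice; Il18r1 averages 245 in Il7r cells and 47.0 in Il2rb cells, and all 5 lines point down.

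The treatment contrast was repeated within each state, since a change in 1 state could be hidden in the whole. Among Cxcr6 cells, TAT-CRE over PBS gave log2 fold changes of -0.22 ± 0.51 for Il7r, -0.33 ± 0.44 for Il2rb, -0.03 ± 0.45 for Il2rg and 0.01 ± 1.09 for Il18r1. Among Klf2 cells it gave -0.80 ± 0.60 for Il7r, -1.0 ± 0.56 for Il2rb and -0.28 ± 0.60 for Il2rg. edgeR called 0 of 3419 genes (0%) in Cxcr6 cells and 0 of 1300 (0%) in Klf2 cells, with 107 and 32 at an unadjusted p under 0.05, and DESeq2 called 0 in both. The difference of the treatment effect between the states was 0.80 ± 0.70 for Il7r, 0.54 ± 0.74 for Il2rb, 0.32 ± 0.78 for Il2rg and -1.10 ± 2.11 for Il18r1. None passed in edgeR's interaction test (adjusted p = 1 for each), in which 0 of 4453 genes (0%) were called, 88 had an unadjusted p under 0.05 and DESeq2 called 0.

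Genes most like each chain were taken from sums over 5 mice and 4 classes (Cxcr6 only, Klf2 only, both, neither), as Pearson's r of log2(CPM + 10) over 20 sums centred per mouse, among 1570 genes. The sums share libraries and differ widely in cell number, so r is a description with no test. Some sums were nearly empty: cells with both genes in TAT-CRE 208 numbered 4 and held 0 Il2rg UMIs. A high r can therefore rest on few sums. Il7r was most like Ptprcap (r = 0.91), a partner of the phosphatase CD45, followed by Rpl21-ps11, Ly6e, Oaz1 and Rpl28-ps1 (0.89 to 0.88). Il2rb was most like H2-Q7 (r = 0.94), a class Ib histocompatibility gene, followed by Gm15772, Rps12-ps4, Gm24865 and AL591207.1. Il2rg was most like the ribosomal protein gene Rpl35a (r = 0.98), with Gm45660, Gm2225 and Gm13436 among the next. Il18r1 was most like Ash1l (r = 0.90), a histone methyltransferase, followed by Ndfip1, Adam10, Eloc and Arhgap30. Il18rap, with 44 UMIs, had no likeness above St8sia4 (r = 0.74), with Ggnbp2, Itsn2 and Gbp7 among the next. Processed pseudogenes such as Rpl21-ps11 can share counts with their parent genes.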

How the data were processed

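The authors deposited UMI counts for every gene in each well of MARS-seq type libraries, per the labels' protocols. The submitters' processing notes name bcl2fastq 2.15.0.4 and mm10; for the aligner, the annotation and the strand setting, no source used here gives a name. Strand, known or not, does not separate a gene from a same-strand readthrough model.

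Kept wells held 1 cell, 400 or more UMIs outside spike-ins and at most 30% mitochondrial UMIs. The 4 ribosomal RNA genes were left out of totals. UMIs were summed per mouse and class and tested with edgeR 4.0.16 in R 4.3.3 (quasi-likelihood, Benjamini-Hochberg over all genes with enough counts, at least 30 UMIs in class contrasts), with TMM scaling for TAT-CRE over PBS in all cells. The other contrasts used library totals alone, chosen after simulated data showed a shift of 0.17 (Cxcr6 over Klf2) and 0.55 (CD8 over CD4) in the median log2 fold change of unchanged genes with TMM. Class contrasts had the mouse as a block, since both classes came from the same animal. For Cxcr6 over Klf2 cells, also within CD8 cells, and for CD8 over CD4 cells, edgeR took the spread almost wholly from all genes together. Those p-values therefore do not measure a gene's own spread between mice. In simulated data, 4-fold changes were recovered for 52.5% of genes in TAT-CRE over PBS, 25% in Cxcr6 over Klf2, 6% in CD8 over CD4 and 28% in Il7r over Il2rb cells. DESeq2 1.42.0 was an alternative, and TMM against totals, and pairs of chains without thinning, were added after seeing the data. Shares of cells were compared with two-sided exact permutation tests that listed every split of the mice, in Python 3.11.15. The thinning used scipy 1.17.1. The limit for a count of 0 is 3 cells of the total, and it covers counting error only. No doublet caller was run on these singly sorted wells.

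The members and gene lists were chosen with earlier results of these data known. Named by rule were the members, list genes that passed or otherwise up to 3 of most UMIs, and the 5 genes most like each chain among those with 200 or more UMIs; no gene met the rule between Il7r and Il2rb cells. Cells were put in classes by single UMIs, so a class misses cells whose transcript was not captured. Depth was 259756 to 470720 UMIs outside ribosomal RNA per mouse. A few named-gene results are not reported here.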

Additional observations from a re-analysis of the deposited data

Results flagged for a closer look

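Each of 26 groups of 5 mice (a chain in a class) was looked at for a mouse far from the rest, and 3 values stood out. Chance alone marks about 1 in 20 such groups.

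Il7r in CD4 cells stood at 1885 CPM in TAT-CRE 208, and the nearest other mouse had 789 CPM. Il18r1 in CD4 cells of the same mouse stood at 1119 CPM, with the nearest at 299 CPM. Both values rest on 19 cells, with 32 UMIs of Il7r and 19 of Il18r1 in 4 cells each. Il2rb in Klf2 cells stood at 938 CPM in PBS 216, and the nearest other mouse had 378 CPM.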

How the results depend on the processing

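Of 771 recomputed values for 65 results, 679 kept their direction and their side of the threshold, 25 lost the call, 4 gained one, 43 changed sign and 20 counts or values moved. For TAT-CRE over PBS, DESeq2 called 1 gene and the fit with no filter on low counts 8. For Cxcr6 over Klf2 cells the fit with no replicate block called 1 gene. Within CD8 cells it called 1, DESeq2 19 and no filter 4. For CD8 over CD4 cells DESeq2 called 4 genes and TMM scaling 41, with the median of all genes at 0.99 on the log2 scale instead of 0.51. For Il7r over Il2rb cells DESeq2 called 1 gene, no filter 2, and adding cells with both chains to the Il7r class 1. Within Cxcr6 cells TAT-CRE over PBS had 2 calls with no filter. The ratio of cells with both Il7r and Il2rb to the product of the shares was 1.07 without thinning. The causes were not tested.

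Signs of members that passed no test turned as follows. For CD8 over CD4 cells, Il2rb was 0.68 with a minimum of 1000 UMIs per cell and 0.51 with TMM scaling, and Il2rg 0.29 with TMM scaling. For TAT-CRE over PBS within Cxcr6 cells, Il7r was 0.10 with no mitochondrial limit, Il2rg 0.11 with ribosomal RNA genes kept and Il18r1 -0.0026 with TMM scaling. With a minimum of 1000 UMIs, Il2rg was 0.17 within Klf2 cells, and the difference between states was -0.090 for Il2rg and 0.11 for Il18r1. For the share of cells, TAT-CRE minus PBS, Il7r was 1.01 percentage points at 500 UMIs, 1.07 with the minimum of 1000 UMIs and 0.0425 with no mitochondrial limit, and Il18r1 was -0.739 without thinning.

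With 1 mouse left out, TAT-CRE over PBS had 0 to 1 calls, with Il7r at -0.29 to 0.64, Il2rb at -0.71 to 0.018, Il2rg at -0.29 to 0.11, Il18r1 at -0.068 to 0.90 and Il18rap at -0.47 to 0.32. Cxcr6 over Klf2 cells had 13 to 31 calls, with Il2rb at -0.041 to 0.31, and within CD8 cells 0 to 7, with Il2rb at -0.25 to 0.49. CD8 over CD4 cells had 2 to 6 calls, with Il2rb at -0.31 to 0.16. Within Cxcr6 cells, TAT-CRE over PBS gave Il7r -0.76 to 0.73, Il2rb -0.71 to 0.15, Il2rg -0.43 to 0.18 and Il18r1 -0.61 to 0.64, and within Klf2 cells Il2rg -0.77 to 0.12. The difference between states was -5.34 to 0.32 for Il18r1. Shares in percentage points were -2.70 to 2.26 for Il7r, -4.54 to 0.297 for Il2rb, -1.68 to 0.120 for Il2rg, -0.706 to 1.23 for Il18r1 and -0.435 to 0.00294 for Il18rap. The share of Il7r cells among cells with either private chain was -7.87 to 19.2.

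No paired analysis was possible because TAT-CRE and PBS mice share no replicate numbers. In the class contrasts, with no replicate block, Il7r was -1.05 for CD8 over CD4 cells and none of the members was called. Depth limits Il18rap most, at 44 UMIs, and it was tested in TAT-CRE over PBS alone.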
